A study of Homo sapiens with 16 samples.

Results

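Treating U-937 cells with all-trans retinoic acid (ATRA) and Corin together changed many transcripts by an amount that the effects of the single agents do not add up to, and this departure from additivity is described here for all genes. The 8 U-937 libraries of the 16 libraries in the series were used, with 2 libraries each for DMSO, ATRA, Corin and both agents. For each gene the departure is the log2 effect of Corin in cells that also had ATRA (both agents minus ATRA) minus the log2 effect of Corin in cells that had none (Corin minus DMSO). A departure of 0 means that the fold changes of the single agents multiply, a positive value (called higher) that the level with both agents lies above that product, and a negative value (called lower) that it lies below. Of the 60603 genes in the table, 17717 had enough counts to be tested.

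U-937 is a human monocyte-like line, described in the labels as an acute myeloid leukaemia (AML) line, grown in RPMI1640 with serum. Cells were kept for 24 h with the solvent DMSO, with ATRA at 0.1 µM, with Corin at 0.1 µM, or with both at these amounts, and total RNA was sequenced with a stranded kit. The other line of the series, SKNO-1, had the same 4 treatments. Nothing in the labels says that the 2 libraries of a group came from separate cultures, so p-values measure only the spread between these samples, which may be technical. One line, 1 amount of each agent and 1 time were measured, so additivity is described at this single pair of amounts.

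ATRA is the ligand of the retinoic acid receptors, which sit on DNA with RXR partners, hold corepressors there without ligand and exchange them for coactivators with it, and it drives myeloid leukaemia cells toward mature phagocytes. CoREST is a repressor complex that joins the histone demethylase LSD1 (KDM1A) with the histone deacetylases HDAC1 and HDAC2, and Corin inhibits both of these activities. LSD1 is known for keeping myeloid differentiation genes silent in leukaemia cells through partners such as GFI1. Cells that leave the cell cycle as they mature lower the genes of DNA replication and mitosis, which are controlled in large part by E2F, RB-family and B-MYB complexes on their promoters.

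The departure passed the test in 4147 genes, 23.4% of those tested, at a Benjamini-Hochberg adjusted p of 0.05 in edgeR's quasi-likelihood test. It was higher in 1434 genes (8.09%) and lower in 2713 genes (15.3%). It reached 1 on the log2 scale in 1681 of them, 509 higher and 1172 lower. The median over all genes tested was -0.03. Among the 10606 genes with a mean of at least 5 counts per 1 M, 10.5% were higher and 22.7% lower. With upper-quartile scaling the median over all genes was 0.09 and the split was 2165 higher and 2224 lower, so the preponderance of lower genes over the whole table depends on the scaling, and the gene groups are best read against these medians. With both agents the genes of DNA replication, mitosis and histone synthesis, each list without exception, lay below the product of the single changes. Genes of the maturing monocyte departed in both directions.

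The libraries held 28.4 to 37.6 M estimated counts. The share of counts in small and ribosomal RNA genes was 14.1% and 14.3% in the libraries with both agents and 7.48% to 11.1% in the other 6, and the protein-coding share was 81.7% and 81.8% against 85.4% to 89.6%. With protein-coding genes alone in the fit, 1780 genes were higher and 2509 lower. With the trend against GC content removed the counts were 1560 and 3024, the median departure having run from 0.03 in the fifth of genes lowest in GC to -0.18 in the highest. All 6 genes chosen to mark U-937 among the 2 lines were present in every library, at a summed 487 to 675 CPM (counts per 1 M on scaled totals). Of the 4 genes chosen to mark SKNO-1, RUNX1T1 and CPA3 had at most 1 count in any U-937 library. POU4F1 had 221 to 638 counts and TPSAB1 300 to 1398. The SKNO-1 set summed to 45.2 to 49.9 CPM with DMSO and 17.9 to 18.3 with both agents. Of 9 T and NK cell markers 2 were at 0, of 7 B and plasma cell markers 4, of 9 erythroid and megakaryocyte markers 6 and of 11 epithelial, stromal and endothelial markers 4. Summed CPM over the libraries with both agents was 103 to 114, 4.97 to 5.29, 0.621 to 0.756 and 266 to 305 for these 4 sets, against 88.1 to 96.5, 11.2 to 13.8, 0.0313 to 0.305 and 58.5 to 63.9 with DMSO. The last rise came from PECAM1, an adhesion molecule that monocytes also carry, and its part in the results was not tested. Most of the T and NK cell sum was NKG7, at 70.5 to 139 CPM. In that set CD3E, CD3G, GNLY and KLRD1 had at most 1 count in any library, TRAC at most 17 and CD2 at most 94. In bulk RNA, fewer cells of a type and less RNA per cell cannot be told apart.

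To show which regulatory letters accompany the cell division genes, the 250 bases before the start of 4 of them are printed 5′ to 3′ on the gene's own strand, from RefSeq on GRCh38.p14. GINS2 (a subunit of the helicase complex that opens DNA), CDC45 (its partner), MCM2 (its ring) and UHRF1 (which keeps DNA methylation in step with replication) were 4 of the genes with the most negative departures. Capitals mark matches on either strand to an E2F-type motif, TTTNNCGC, and to the CCAAT box, CCAAT, and on the other strand the capitals are their reverse complements. The windows are chr16:85688955-85689204 on the minus strand for GINS2 and, on the plus strand, chr22:19479670-19479919 for CDC45, chr3:127598161-127598410 for MCM2 and chr19:4909251-4909500 for UHRF1. The starts are those of RefSeq. In GENCODE release 44 the genes GINS2, CDC45 and UHRF1 begin further upstream, so their windows lie inside the GENCODE gene.
GINS2: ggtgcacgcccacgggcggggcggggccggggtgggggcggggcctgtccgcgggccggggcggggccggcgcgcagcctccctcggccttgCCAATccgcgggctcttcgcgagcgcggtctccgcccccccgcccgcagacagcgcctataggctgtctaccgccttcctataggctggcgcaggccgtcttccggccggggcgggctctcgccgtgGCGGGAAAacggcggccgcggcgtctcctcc
CDC45: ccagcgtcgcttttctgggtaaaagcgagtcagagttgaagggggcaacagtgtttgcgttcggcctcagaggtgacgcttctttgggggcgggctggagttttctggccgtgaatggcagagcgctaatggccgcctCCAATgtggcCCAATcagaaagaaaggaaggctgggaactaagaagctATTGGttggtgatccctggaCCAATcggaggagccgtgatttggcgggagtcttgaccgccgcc
MCM2: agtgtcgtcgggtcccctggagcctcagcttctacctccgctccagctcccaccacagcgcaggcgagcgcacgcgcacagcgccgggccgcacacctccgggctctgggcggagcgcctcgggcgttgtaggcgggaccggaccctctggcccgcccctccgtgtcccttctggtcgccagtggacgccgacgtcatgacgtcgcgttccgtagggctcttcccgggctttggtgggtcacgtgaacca
UHRF1: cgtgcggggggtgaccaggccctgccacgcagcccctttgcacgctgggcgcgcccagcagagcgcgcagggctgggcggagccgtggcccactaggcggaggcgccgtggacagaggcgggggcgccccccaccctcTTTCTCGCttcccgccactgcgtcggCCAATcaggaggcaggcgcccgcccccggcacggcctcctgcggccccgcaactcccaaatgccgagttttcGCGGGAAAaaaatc
GINS2 had 1 E2F-type match, 31 to 24 bases before the start, and 1 CCAAT box. CDC45 had 4 CCAAT boxes, UHRF1 had 2 E2F-type matches and 1 CCAAT box, and the MCM2 window held neither set of letters. A match is a description of the letters and not a measured binding site.

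Across promoters, the E2F-type letters stood in 15 of the 39 DNA replication genes with a sequence (38.5%) and in 10 of 29 replication-dependent histone genes (34.5%), and in 5 of 45 mitosis genes (11.1%), against 5.93% of all 27305 promoters and 9.09% of those of the genes tested. They stood in 7.5% of ribosome biogenesis promoters, 12% of interferon-stimulated ones and 3.45% of monocyte surface ones. CCAAT boxes stood in 86.2% of the histone promoters, 68.9% of the mitosis promoters and 56.4% of the replication promoters, against 33.0% of all. The CHR element TTTGAA, known from mitosis genes, was in 23 of 45 mitosis promoters (51.1%), in 37.9% of monocyte surface promoters, in 27.6% of histone promoters and in 2.56% of replication promoters. It was in 13.6% of all promoters and 8.96% of those of the genes tested. Motifs were searched on both strands, and GAGGAA, the core letters of PU.1 sites, stood in 44.8% of the promoters of monocyte surface genes and 23.4% of all.

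To ask what ATRA changes about the response to Corin, the effect of Corin alone was set beside its effect with ATRA present, and these contrasts share no library. Corin alone changed 2293 genes (12.9%), of which 1514 rose (8.55%) and 779 fell (4.4%). In cells with ATRA it changed 8395 (47.4%), of which 3993 rose (22.5%) and 4402 fell (24.8%). Of the genes changed by Corin alone 1795 (78.3%) were also called with ATRA present, which is 21.4% of the larger set, and 1699 of them kept their direction while 96 had the other one. The 1514 genes that rose with Corin alone had a median effect of 0.79 alone and 0.95 with ATRA (log2), and the 779 that fell had medians of -0.46 and -0.64. The 4402 genes that fell with Corin in the presence of ATRA had a median of -0.75 there and -0.14 without it. A median over genes called in a contrast is drawn away from 0 by that choice, which is why the other contrast is given beside it. In the same way ATRA alone changed 7405 genes (41.8%), with 3848 up (21.7%) and 3557 down (20.1%), and ATRA on top of Corin 10710 (60.5%), of which 6235 were shared and 262 had opposite directions. Both agents against DMSO changed 11570 genes (65.3%), with 5860 up (33.1%) and 5710 down (32.2%).

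**Figure D1:**
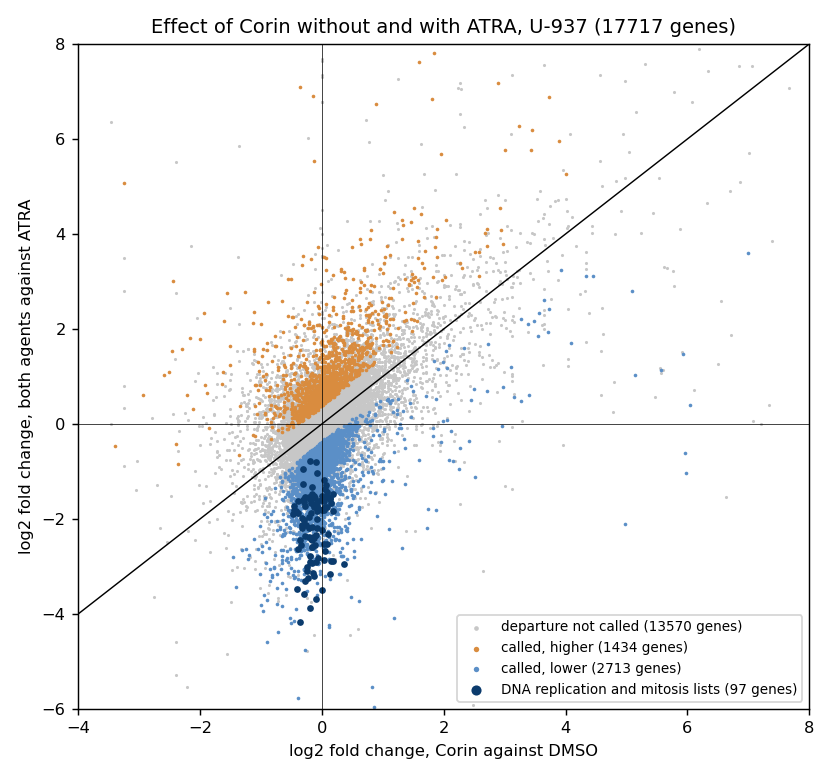
Log2 fold change of Corin against DMSO (x axis) and of both agents against ATRA (y axis) for the 17717 genes tested in U-937, 1 point a gene, with 43 genes outside the axes; the diagonal is a departure of 0, and a gene's height above or below it is its departure. The 97 genes of the DNA replication and mitosis lists lie near 0 on the x axis and below the diagonal.

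Genes called for departure were sorted by the signs of the single effects. A departure in the direction that both single effects share is synergy, one against that shared direction that leaves the joint effect in it is saturation, and antagonism holds genes whose single effects have opposite signs or whose joint effect has turned against both. Synergy held 1757 genes, 488 higher and 1269 lower. Saturation held 329, 124 higher and 205 lower, and antagonism 2061, 822 higher and 1239 lower. E2F-type letters stood in 13.2%, 8.67% and 10.9% of the promoters of the lower genes of synergy, saturation and antagonism. For the higher genes the shares were 6.05%, 10% and 7.12%, against 9.09% of the genes tested. The DMSO, ATRA and Corin libraries enter both the departure and the signs used for sorting, so the class sizes carry no test. Without the second ATRA library saturation lower held 119 genes. With upper-quartile scaling synergy higher held 774.

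Many of these signs belong to small single effects. Neither single effect was called in 1476 of the 4147 genes, among them 1016 of the 2061 in antagonism. Among genes with both single effects called, the classes were of more even size, with 131 genes higher and 164 lower in synergy, 42 and 102 in saturation and 99 and 60 in antagonism. A departure was called in 598 of the 1515 genes with both single effects called (39.5%), in 31.3% of genes with only ATRA called, 29.3% with only Corin called and 15.5% of the 9534 with neither. Where both agents lowered a gene it was called in 210 of 416, and in 164 of these the joint fall was below the product. Where both agents raised a gene it was called in 244 of 784, 131 higher and 113 lower.

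Of the 205 saturation genes whose fitted single effects were both above 0, 102 had both of them called. In 46 of the 205 the level with both agents stayed at or above that of the stronger agent, and all 46 had both single effects called. In the other 159, of which 56 had both single effects called, it fell short of that level. The product is a demanding reference for large effects: on the linear CPM scale, where single changes are summed, 34 of those 46 genes were above the sum. Over all 4147 genes the sign was the same on both scales in 4031 and differed in 116. Among the 116 were ITGAM, MS4A4A, CCR2, S100A9, IRF1, FAM81A, CCND2 and PSAT1, described below, which were under the product but above the linear sum. For CCND2 and PSAT1, which each agent lowered, that sum was negative, so any level lies above it. For FAM81A it was 0.333 CPM. In these 3 genes the sign on the linear scale therefore says little.

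**Figure D2:**
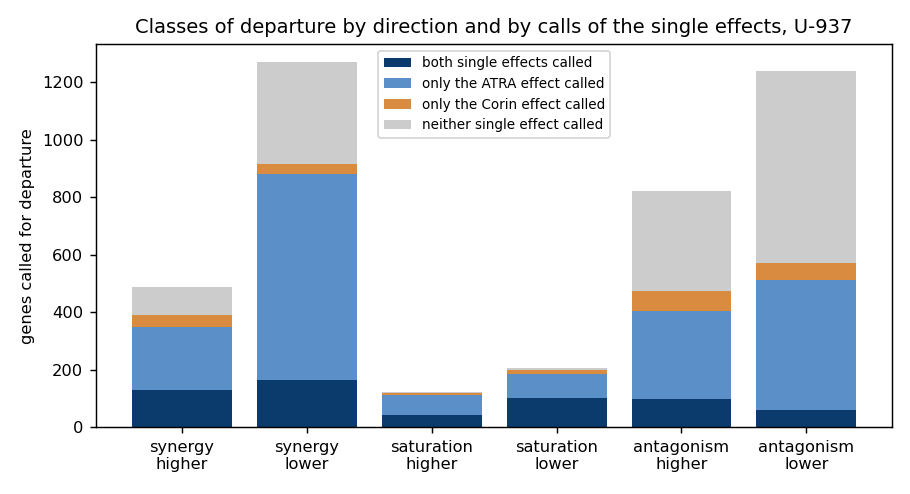
Number of genes called for departure in each class and direction (y axis, genes), stacked by whether both, 1 or neither single effect was called. The antagonism bars hold 822 and 1239 genes, and 1016 of these had neither single effect called.

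DNA replication genes all moved the same way. All 45 genes of the list had a lower departure, against 15.3% of all genes, with a median of -2.59 and a range of -3.80 to -1.34. Each agent alone had a small median effect, -0.22 with ATRA and -0.16 with Corin. ATRA alone lowered 20 and raised 3, against 20.1% and 21.7% of all genes. Corin alone lowered 5 and raised 1, against 4.4% and 8.55%. Of the 45 genes 19 were called with neither, against 9534 of the 17717 genes tested. With both agents all 45 fell, with a median of -2.79, and all 45 also fell against ATRA alone. The shares of all genes were 32.2% and 24.8%. By the signs of the single effects 26 were sorted into synergy and 19, such as MCM2 and UHRF1, into antagonism.

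GINS2, at chr16:85676198-85690073 (GENCODE release 44 on hg38, as for all gene positions given), stood at 51.2 and 53.4 CPM with DMSO, 37.0 and 35.4 with ATRA, 43.1 and 37.8 with Corin, and 2.04 and 1.96 with both agents. The groups with 1 agent lay slightly under DMSO, and both libraries with the 2 agents lay far under all others. The product of the single changes would give 28.0 CPM, and the departure was -3.80 (SE 0.176, adjusted p = 5.29e-13). CDC45 stood at 39.8 and 38.6 CPM with DMSO, 30.1 and 31.4 with ATRA, 35.6 and 32.6 with Corin, and 1.60 and 2.65 with both agents, with a departure of -3.67 (SE 0.204, adjusted p = 4.21e-12). MCM2, at chr3:127598410-127622436, had 221 and 208 CPM with DMSO, 167 and 179 with ATRA, 252 and 215 with Corin, and 18.6 and 19.99 with both agents. The ATRA libraries lay under DMSO, those with Corin overlapped it, and the joint libraries were far under all of these. The product was 189 CPM, and the departure was -3.29 (SE 0.15, adjusted p = 5.29e-13). UHRF1, whose promoter carries the paired E2F-type letters printed above, had 91.1 and 91.6 CPM with DMSO, 93.8 and 98.7 with ATRA, 114 and 120 with Corin, and 12.96 and 11.9 with both agents. It was the only one of these 4 that Corin alone raised (adjusted p = 0.0128), and its departure was -3.31 (SE 0.142, adjusted p = 3.1e-13).

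The sliding clamp PCNA, which holds the polymerase on DNA, showed the same shape at higher expression. Its levels were 457 and 491 CPM with DMSO, 458 and 486 with ATRA, 449 and 396 with Corin, and 70.0 and 85.8 with both agents. The 6 libraries without the combination were all between 396 and 491 CPM, and the departure was -2.43 (SE 0.161, adjusted p = 6.27e-11). ZNF367, a zinc finger protein which is not in the list, had 23.1 and 24.6 CPM with DMSO, 28.4 and 28.6 with ATRA, 22.9 and 22.2 with Corin, and 2.16 and 2.54 with both agents and a departure of -3.52 (SE 0.184, adjusted p = 1.96e-12). FAM81A, which is not in the list either, differed in that ATRA alone lowered it: it had 28.2 and 36.8 CPM with DMSO, 10.1 and 9.80 with ATRA, 23.0 and 22.7 with Corin, and 0.503 and 0.584 with both agents, and the departure was -3.69 (SE 0.259, adjusted p = 1.6e-10).

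**Figure D3:**
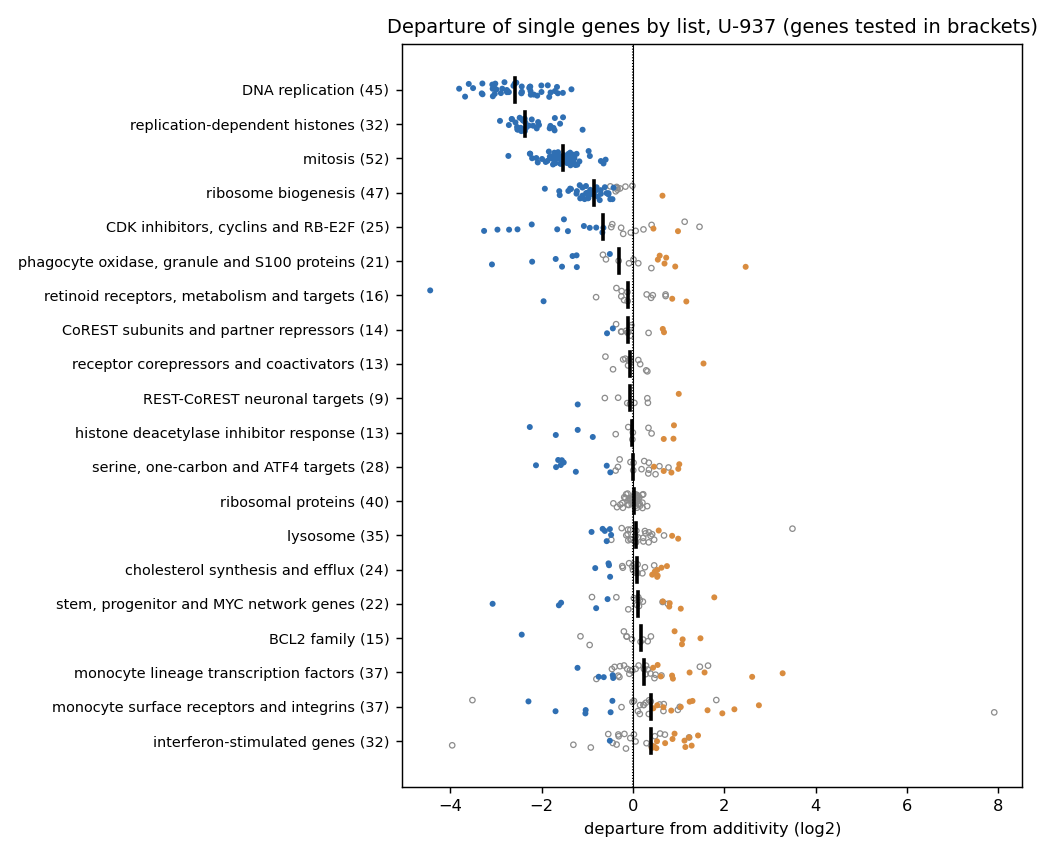
Departure from additivity (x axis, log2) of each tested gene in 20 gene lists of U-937, with filled points for called genes, open points for the others, black bars for list medians and a dotted line at the median over all genes (-0.03). The DNA replication, histone and mitosis lists lie wholly to the left of 0, with medians of -2.59, -2.36 and -1.53.

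Mitosis genes followed with smaller departures. All 52 were lower, against 15.3% of all genes, with a median of -1.53 and a range of -2.73 to -0.60. Neither single effect was called in 31 of the 52, against 9534 of the 17717 genes tested. ATRA alone raised 11 and lowered 2, against 21.7% and 20.1% of all genes. Corin alone raised 0 and lowered 9, against 8.55% and 4.4%. By the signs of the single effects 18 were sorted into synergy and 34 into antagonism. MKI67, the proliferation marker Ki-67, had 905 and 921 CPM with DMSO, 1154 and 1072 with ATRA, 757 and 902 with Corin, and 199 and 224 with both agents. Only the libraries with both agents were low, and the departure was -2.26 (SE 0.164, adjusted p = 2.97e-10). CCNB1, the cyclin that carries cells into mitosis, had 189 and 205 CPM with DMSO, 180 and 202 with ATRA, 212 and 179 with Corin, and 59.4 and 74.4 with both agents and a departure of -1.51 (SE 0.163, adjusted p = 2.63e-07).

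Among the 25 CDK inhibitor, cyclin and RB-E2F genes, 13 were lower and 2 higher, against 15.3% and 8.09% of all genes, and with 1 library left out 13 or 14 were lower and 1 or 2 higher. E2F1, the transcription factor of the G1 to S step, had 24.4 and 23.2 CPM with DMSO, 24.0 and 23.7 with ATRA, 25.3 and 26.5 with Corin, and 3.23 and 3.44 with both agents. Neither agent alone moved it past the test, and both lowered it 7.16-fold, with a departure of -2.96 (SE 0.175, adjusted p = 1.05e-11). CCNE2, the cyclin that starts S phase, rose with ATRA alone and fell with both agents: it had 24.5 and 32.3 CPM with DMSO, 57.1 and 63.3 with ATRA, 23.4 and 23.6 with Corin, and 4.20 and 6.29 with both agents, and a departure of -3.26 (SE 0.227, adjusted p = 3.07e-08). CCND2, a G1 cyclin, was lowered by each agent and further by both: it had 188 and 191 CPM with DMSO, 51.3 and 46.3 with ATRA, 103 and 101 with Corin, and 12.8 and 12.1 with both agents, and a departure of -1.07 (SE 0.14, adjusted p = 2.89e-06). The CDK inhibitor CDKN1A (p21) rose with each agent and with both, and had 2.51 and 2.82 CPM with DMSO, 12.7 and 17.9 with ATRA, 8.22 and 8.29 with Corin, and 59.7 and 66.6 with both agents. Its product was 47.6 CPM, and its departure of 0.41 (SE 0.223, adjusted p = 0.207) did not pass the test (0.68 and 0.0338 without the second ATRA library).

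The replication-dependent histones, made in S phase to package new DNA, turned direction. Of the 32 tested, 29 rose with ATRA alone (median 0.75), against 21.7% of all genes. With both agents all 32 fell (median -1.33), against 32.2% of all genes. All 32 thus had a lower departure (median -2.36, range -2.91 to -1.10), against 15.3% of all genes, and all were sorted into antagonism. HIST1H2BB, an H2B gene at chr6:26043227-26043713, had 102 and 102 CPM with DMSO, 174 and 194 with ATRA, 158 and 116 with Corin, and 42.8 and 50.6 with both agents. Each agent's libraries lay above DMSO and both joint libraries lay under it, with a product of 247 CPM and a departure of -2.40 (SE 0.186, adjusted p = 5.32e-08). HIST2H2BF, another H2B gene, had 107 and 103 CPM with DMSO, 197 and 243 with ATRA, 155 and 123 with Corin, and 45.8 and 47.9 with both agents and a departure of -2.63 (SE 0.166, adjusted p = 1.04e-10). HIST3H2A, an H2A gene named by the rule and not in the list, went the other way: it had 1.53 and 1.43 CPM with DMSO, 3.12 and 3.76 with ATRA, 2.55 and 2.22 with Corin, and 32.3 and 34.3 with both agents, and a departure of 2.58 (SE 0.262, adjusted p = 5.93e-08). Histone genes share sequence, and the authors' counts divide shared reads by a model, so single histone values are uncertain.

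Growth genes were lowered mostly by ATRA and further by the pair. Of the 47 ribosome biogenesis genes 45 fell with ATRA alone (median -0.90) and 5 with Corin (median -0.09), against 20.1% and 4.4% of all genes. With both agents 45 fell with a median of -1.83, against 32.2% of all genes. The departure was lower in 38 and higher in 1 (median -0.84), against 15.3% and 8.09% of all genes. MYC, the transcription factor that drives these genes in growing cells, had 220 and 208 CPM with DMSO, 40.0 and 38.3 with ATRA, 217 and 200 with Corin, and 4.41 and 4.71 with both agents. Corin alone left it at the DMSO level within the spread of the libraries, whereas Corin on top of ATRA took it 8.60-fold lower, with a departure of -3.07 (SE 0.151, adjusted p = 1.2e-12). NOLC1, a nucleolar chaperone, had 463 and 505 CPM with DMSO, 168 and 163 with ATRA, 486 and 450 with Corin, and 49.3 and 56.0 with both agents, and a departure of -1.60 (SE 0.147, adjusted p = 1.28e-08). NCL (nucleolin) had 970 and 1083 CPM with DMSO, 577 and 583 with ATRA, 1025 and 929 with Corin, and 318 and 362 with both agents, and a departure of -0.70 (SE 0.158, adjusted p = 0.0019). The 40 ribosomal protein genes themselves gave 0 called departures by edgeR and 0 by DESeq2, with 1 at an unadjusted p under 0.05 and a median of 0.03, and 1 or 2 were called when some single libraries were left out.

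**Figure D4:**
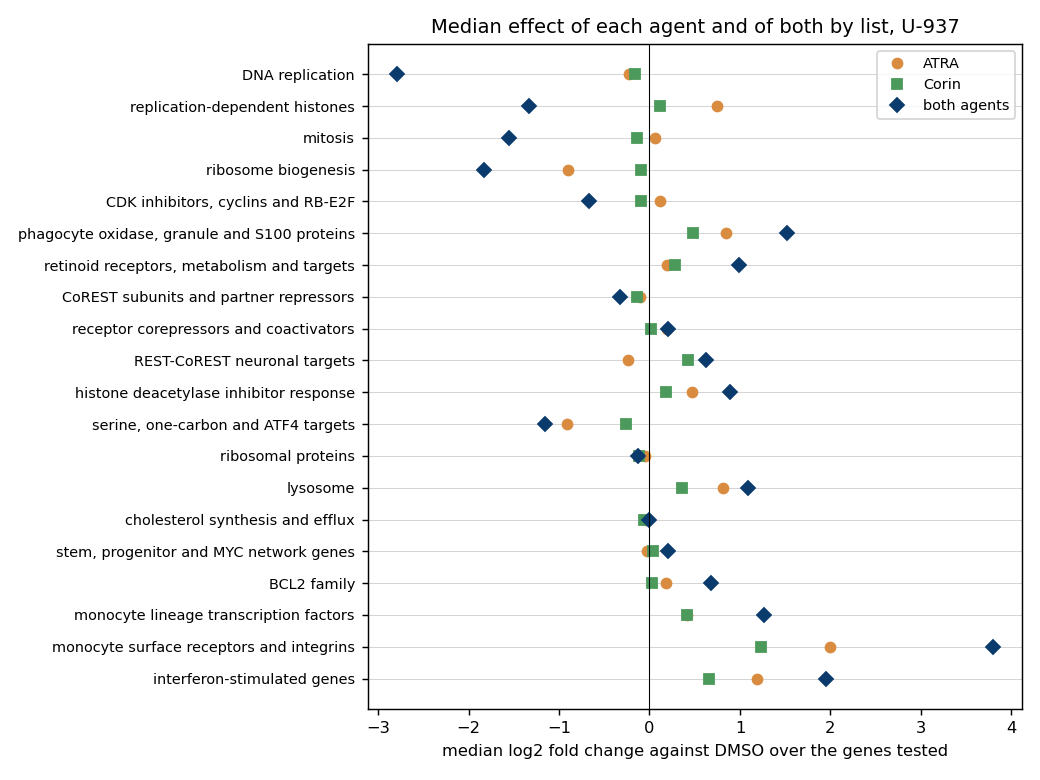
Median log2 fold change against DMSO (x axis) of ATRA, Corin and both agents over the tested genes of each list in U-937. For DNA replication the single agents lie at -0.22 and -0.16 and the pair at -2.79, and for monocyte surface receptors at 2.00, 1.24 and 3.79.

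Most genes of the maturing monocyte rose with each agent and rose further with both, with departures in both directions. Of the 37 monocyte surface receptors and integrins, 28 rose with ATRA (median 2.00), 24 with Corin (median 1.24) and 36 with both (median 3.79). The shares of all genes that rose were 21.7%, 8.55% and 33.1%. The departure was higher in 11 and lower in 6 (median 0.39), against 8.09% and 15.3% of all genes. Without the second DMSO library 7 were higher, and without the first DMSO library 3 were lower. ITGAM (CD11b), the integrin that marks myeloid maturation, had 4.82 and 4.58 CPM with DMSO, 99.3 and 108 with ATRA, 57.6 and 52.3 with Corin, and 368 and 381 with both agents. Each agent raised it and the pair exceeded both, yet fell short of the product of 1213 CPM, with a departure of -1.69 (SE 0.153, adjusted p = 9.94e-09). On the linear scale the pair lay above the sum of the single changes. The complement receptor C5AR1 went above its product: it had 1.32 and 1.09 CPM with DMSO, 4.94 and 5.16 with ATRA, 4.79 and 4.08 with Corin, and 56.9 and 58.8 with both agents, and a departure of 1.64 (SE 0.241, adjusted p = 1.49e-05). CD86, a costimulatory ligand for T cells, had 0.282 and 0.407 CPM with DMSO, 3.94 and 5.22 with ATRA, 5.85 and 5.26 with Corin, and 160 and 189 with both agents. Its departure of 1.24 (SE 0.388, adjusted p = 0.0226) rests on 21 counts in the DMSO libraries, and the adjusted p was 0.275 without the second DMSO library and 0.0554 without the first ATRA library.

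FCGR2B and FCGR2A, which are Fc receptors for antibody complexes, had single effects of opposite sign. In the list of 37 monocyte surface genes 2 fell with ATRA alone, against 20.1% of all genes. FCGR2B, the inhibitory Fc receptor, had 14.2 and 14.9 CPM with DMSO, 9.62 and 9.41 with ATRA, 56.3 and 50.5 with Corin, and 160 and 167 with both agents. ATRA alone lowered it, Corin alone raised it, and both together took it above Corin, with a departure of 2.22 (SE 0.15, adjusted p = 9.44e-11). Its relative FCGR2A, an activating receptor, had 52.0 and 51.5 CPM with DMSO, 43.0 and 42.2 with ATRA, 70.2 and 62.6 with Corin, and 123 and 148 with both agents, and a departure of 1.31 (SE 0.148, adjusted p = 3.39e-07). These receptors are close in sequence, so the division of reads between them is uncertain.

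MS4A4A, a tetraspan protein of monocytes and macrophages at chr11:60185657-60318080, belongs to the saturation genes that the pair left above both agents. It had 2.41 and 2.95 CPM with DMSO, 142 and 143 with ATRA, 52.2 and 38.9 with Corin, and 423 and 497 with both agents. Each group was clear of the others and the pair was highest, at less than the product of 2418 CPM but above the linear sum of 185 CPM, with a departure of -2.40 (SE 0.208, adjusted p = 4.56e-08). CCR2, the receptor that calls monocytes out of the marrow, was raised more by Corin than by ATRA: it had 0.720 and 0.441 CPM with DMSO, 5.98 and 5.46 with ATRA, 21.4 and 18.7 with Corin, and 35.8 and 44.4 with both agents, and a departure of -2.29 (SE 0.279, adjusted p = 9.72e-07). RHBDL3, a rhomboid-family membrane protein, was raised mostly by ATRA, and with both agents it lay below ATRA alone. It had 0.344 and 0.713 CPM with DMSO, 17.5 and 18.1 with ATRA, 1.36 and 1.24 with Corin, and 2.63 and 3.19 with both agents, a fall of 6.12-fold against ATRA, and a departure of -3.92 (SE 0.362, adjusted p = 1.32e-08).

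Of the 21 phagocyte oxidase, granule and S100 genes, 6 had a higher and 8 a lower departure, against 8.09% and 15.3% of all genes. S100A9, a calcium-binding protein of phagocytes, had 2.57 and 3.12 CPM with DMSO, 37.7 and 40.9 with ATRA, 37.0 and 29.6 with Corin, and 191 and 204 with both agents, and a departure of -1.23 (SE 0.184, adjusted p = 1.88e-05). BPI, a granule protein that kills Gram-negative bacteria, had 0.501 and 0.170 CPM with DMSO, 6.98 and 6.62 with ATRA, 0.612 and 0.816 with Corin, and 72.2 and 82.7 with both agents. The libraries with both agents were far above the rest, with a departure of 2.47 (SE 0.458, adjusted p = 0.000264), and without the first DMSO library the departure was 1.47 and the adjusted p 0.2. The serine proteases of early granules went down instead. PRTN3 rose with ATRA alone and fell under DMSO with both: it had 48.5 and 35.6 CPM with DMSO, 124 and 133 with ATRA, 56.0 and 48.2 with Corin, and 18.3 and 19.1 with both agents, and a departure of -3.09 (SE 0.18, adjusted p = 1.22e-10). CTSG (cathepsin G) had 713 and 658 CPM with DMSO, 773 and 857 with ATRA, 722 and 575 with Corin, and 240 and 286 with both agents, and a departure of -1.55 (SE 0.174, adjusted p = 2.83e-07).

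**Figure D5:**
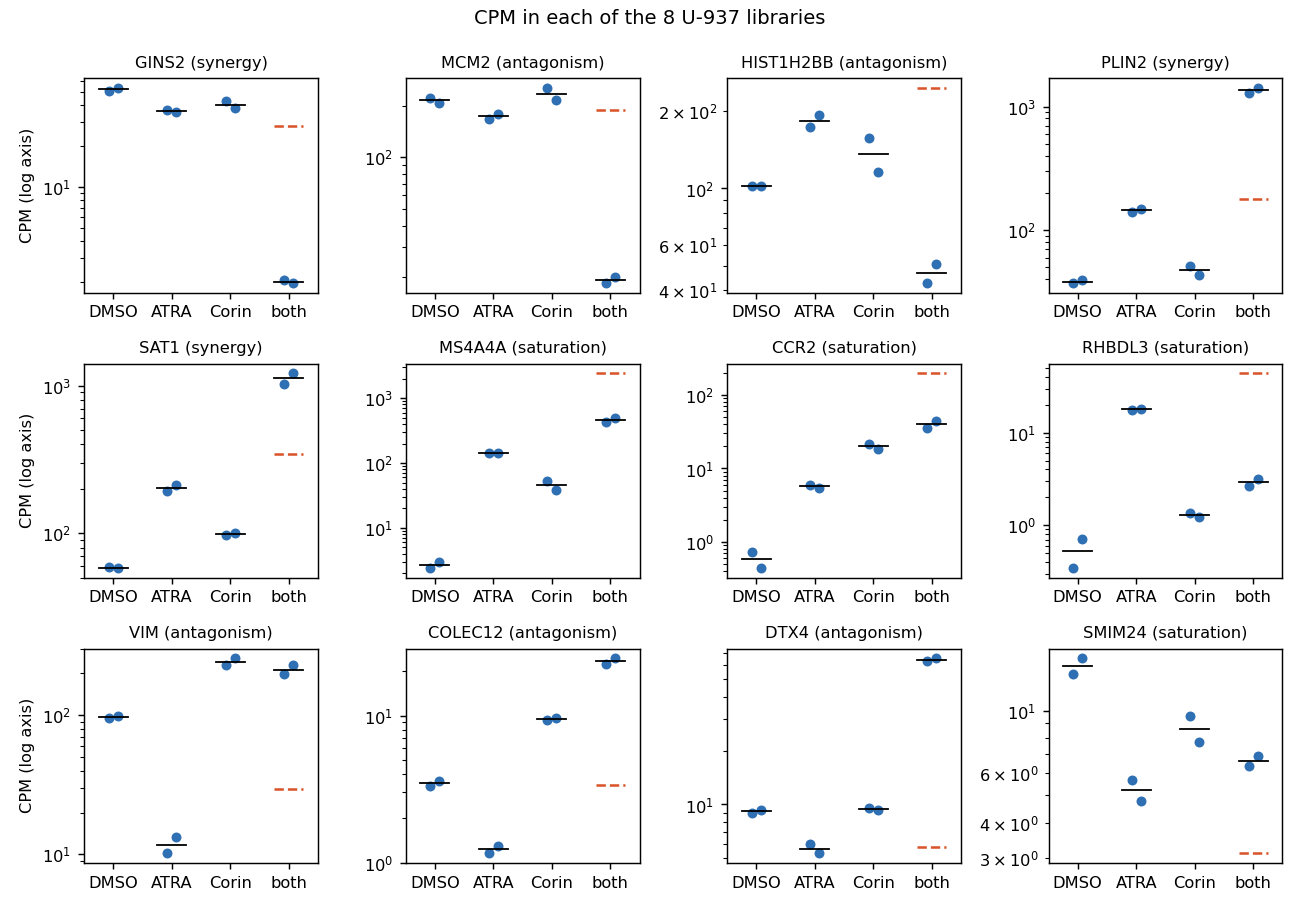
CPM (log axis) of 12 genes in each of the 8 U-937 libraries, with a black line at each group mean and a dashed line at the product of the single-agent changes for the group with both agents. GINS2, MCM2 and HIST1H2BB lie under the dashed line at 28.0, 189 and 247 CPM, whereas PLIN2, SAT1, VIM, COLEC12, DTX4 and SMIM24 lie above theirs.

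Several genes rose with both agents well above the product. PLIN2, the coat protein of lipid droplets at chr9:19108375-19149290, had 37.5 and 39.3 CPM with DMSO, 141 and 150 with ATRA, 51.8 and 43.2 with Corin, and 1296 and 1407 with both agents. Corin alone left it near DMSO, and on top of ATRA it gave a 9.29-fold rise. The product was 180 CPM and the departure 2.91 (SE 0.159, adjusted p = 3.44e-12). SAT1, the enzyme that marks polyamines for breakdown, rose with each agent: it had 58.8 and 58.1 CPM with DMSO, 193 and 213 with ATRA, 96.6 and 100 with Corin, and 1034 and 1214 with both agents, and a departure of 1.71 (SE 0.153, adjusted p = 8.12e-09). ITGA1, the collagen-binding integrin subunit, had 0.720 and 0.475 CPM with DMSO, 0.938 and 0.850 with ATRA, 1.78 and 1.67 with Corin, and 20.3 and 21.6 with both agents, and a departure of 3.03 (SE 0.366, adjusted p = 8.85e-07). MYOM1, a protein of the muscle sarcomere, had 0.908 and 0.441 CPM with DMSO, 4.99 and 5.19 with ATRA, 0.772 and 0.784 with Corin, and 44.7 and 45.3 with both agents, and a departure of 2.96 (SE 0.352, adjusted p = 7.27e-07). In ITGA1 and MYOM1 the libraries with both agents stood far above the 6 others, which were all at low levels. The lysosomal activator protein PSAP had 227 and 226 CPM with DMSO, 707 and 738 with ATRA, 297 and 245 with Corin, and 1665 and 1777 with both agents, and a departure of 0.99 (SE 0.16, adjusted p = 4.82e-05).

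VIM, the intermediate filament vimentin at chr10:17228241-17237593, shows opposite single effects. It had 96.0 and 98.1 CPM with DMSO, 10.2 and 13.3 with ATRA, 230 and 256 with Corin, and 198 and 228 with both agents. ATRA alone took it well under DMSO, Corin alone took it above, and the libraries with both agents lay between DMSO and Corin alone. The product was 29.4 CPM and the departure 2.86 (SE 0.165, adjusted p = 7.7e-12), and the level with both agents was 18.1-fold that with ATRA. COLEC12, a scavenger receptor with a collagen-like stalk, had 3.32 and 3.60 CPM with DMSO, 1.16 and 1.31 with ATRA, 9.34 and 9.70 with Corin, and 22.5 and 24.5 with both agents. It went above Corin alone, with a departure of 2.79 (SE 0.242, adjusted p = 5.27e-09). DTX4, a ubiquitin ligase of the Deltex family tied to Notch signalling, had 9.02 and 9.30 CPM with DMSO, 5.98 and 5.34 with ATRA, 9.50 and 9.31 with Corin, and 63.5 and 65.5 with both agents. No single agent raised it past the test, and both raised it 7.04-fold, with a departure of 3.47 (SE 0.173, adjusted p = 1.2e-12).

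In 124 genes the fitted effects of both single agents were below 0 and the level with both agents was above the product, and in 42 of them both single effects were called. SMIM24, a small membrane protein, had 13.5 and 15.3 CPM with DMSO, 5.65 and 4.77 with ATRA, 9.55 and 7.71 with Corin, and 6.33 and 6.87 with both agents, and a departure of 1.07 (SE 0.233, adjusted p = 0.00127). Its joint level lay between those of the single agents. ST8SIA4, which builds polysialic acid on cell surface proteins, had 57.5 and 61.4 CPM with DMSO, 29.8 and 30.1 with ATRA, 30.5 and 31.9 with Corin, and 34.5 and 35.9 with both agents. The 3 treated groups were close to each other and all were below DMSO, with a departure of 1.16 (SE 0.142, adjusted p = 1.04e-06). SOCS2, a feedback inhibitor of cytokine receptors, had 11.1 and 10.4 CPM with DMSO, 2.70 and 3.58 with ATRA, 7.18 and 7.80 with Corin, and 4.94 and 6.39 with both agents and a departure of 1.37 (SE 0.264, adjusted p = 0.000388). ABHD4, a lipid hydrolase, had 14.4 and 13.9 CPM with DMSO, 7.67 and 7.35 with ATRA, 11.5 and 10.9 with Corin, and 14.6 and 12.99 with both agents. Its joint libraries lay at the DMSO level, with a departure of 1.21 (SE 0.193, adjusted p = 3.98e-05). The effect of Corin alone did not pass the test in SOCS2 (adjusted p = 0.057) or in ABHD4 (adjusted p = 0.107).

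Interferon-stimulated genes leaned upward. Of 32 tested, 22 rose with ATRA and 15 with Corin, against 21.7% and 8.55% of all genes. The departure was higher in 12 and lower in 1 (median 0.41), against 8.09% and 15.3% of all genes. With 1 library left out 8 to 13 were higher and 0 to 2 lower. OAS2, a sensor of double-stranded RNA, had 2.82 and 3.53 CPM with DMSO, 8.88 and 8.53 with ATRA, 6.15 and 6.27 with Corin, and 43.4 and 48.4 with both agents, and a departure of 1.43 (SE 0.204, adjusted p = 9.63e-06). Among 37 monocyte lineage transcription factors 9 were higher and 5 lower (6 to 12 and 3 to 6 with 1 library left out). IRF1 had 9.08 and 8.75 CPM with DMSO, 107 and 111 with ATRA, 19.5 and 19.9 with Corin, and 157 and 152 with both agents, and a departure of -0.64 (SE 0.143, adjusted p = 0.00172). IRF8, which steers progenitors to monocytes and dendritic cells, was lowered by ATRA and raised by Corin: it had 111 and 106 CPM with DMSO, 76.9 and 78.7 with ATRA, 166 and 145 with Corin, and 62.3 and 70.7 with both agents, and a departure of -0.75 (SE 0.142, adjusted p = 0.00033).

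Of the 15 BCL2-family genes 4 were higher and 1 lower, against 8.09% and 15.3% of all genes. BCL2, the survival protein, had 102 and 115 CPM with DMSO, 41.9 and 41.5 with ATRA, 91.0 and 103 with Corin, and 7.43 and 6.32 with both agents. Corin alone left it within the spread, and the pair took it to a level under that of ATRA alone, with a departure of -2.43 (SE 0.159, adjusted p = 5.29e-11). Its relative BCL2A1 rose with both agents and passed the test with neither alone: it had 35.3 and 40.6 CPM with DMSO, 33.7 and 33.3 with ATRA, 40.2 and 35.4 with Corin, and 86.4 and 100 with both agents, and a departure of 1.48 (SE 0.156, adjusted p = 1.08e-07). BMF, a pro-apoptotic member, had 14.2 and 12.1 CPM with DMSO, 50.2 and 54.2 with ATRA, 16.7 and 19.1 with Corin, and 134 and 133 with both agents, and a departure of 0.91 (SE 0.156, adjusted p = 9.41e-05). Of 28 serine, one-carbon and ATF4-target genes 9 were lower and 5 higher (8 to 10 and 3 to 6 with 1 library left out), against the same 15.3% and 8.09%. PSAT1 and PHGDH, enzymes of serine synthesis, fell with each agent and below the product with both. PSAT1 had 173 and 177 CPM with DMSO, 26.1 and 24.9 with ATRA, 103 and 82.5 with Corin, and 3.91 and 5.22 with both agents, and a departure of -1.58 (SE 0.181, adjusted p = 5.21e-07). PHGDH had 195 and 185 CPM with DMSO, 65.9 and 70.8 with ATRA, 151 and 129 with Corin, and 13.3 and 18.1 with both agents, and a departure of -1.68 (SE 0.171, adjusted p = 1.76e-07). ASNS, which makes asparagine, stopped near its ATRA level: it had 27.5 and 25.9 CPM with DMSO, 8.88 and 8.07 with ATRA, 14.7 and 13.9 with Corin, and 8.64 and 9.48 with both agents, and a departure of 0.99 (SE 0.183, adjusted p = 0.000227).

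The counts for genes of the drug targets themselves stand beside 8.09% higher and 15.3% lower of all genes. Of 16 retinoid receptor, metabolism and target genes 2 were higher and 2 lower (1 or 2 and 2 or 3 with 1 library left out). DHRS9, an enzyme that makes retinoic acid precursors, rose about equally with each agent and little more with both: it had 2.51 and 3.09 CPM with DMSO, 15.9 and 15.1 with ATRA, 15.8 and 14.7 with Corin, and 20.1 and 23.7 with both agents, and a departure of -1.96 (SE 0.206, adjusted p = 1.12e-07). ASB2, a ubiquitin ligase subunit known as an ATRA target in leukaemia, had 17.2 and 15.9 CPM with DMSO, 13.2 and 12.1 with ATRA, 24.3 and 21.4 with Corin, and 39.0 and 39.5 with both agents, and a departure of 1.17 (SE 0.164, adjusted p = 7.16e-06). TGM2 (transglutaminase 2) had 1 count over both DMSO libraries, so the size of its departure is not given. Of 14 CoREST subunits and partners 2 were higher and 2 lower, with 0 to 3 lower and 1 or 2 higher when 1 library was left out. ZMYM2, a CoREST partner, had 129 and 134 CPM with DMSO, 81.4 and 84.3 with ATRA, 96.6 and 107 with Corin, and 102 and 104 with both agents, and a departure of 0.68 (SE 0.134, adjusted p = 0.000483). Of 13 receptor corepressors and coactivators 1 was higher and 0 lower by edgeR, against 2 and 1 by DESeq2, with 1 lower at an unadjusted p under 0.05.

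For the remaining lists the shares of all genes were 8.09% higher and 15.3% lower, and ranges with 1 library left out are given in brackets. Of 35 lysosome genes 3 were higher and 6 lower (2 to 7 and 4 to 6), and 10 were higher in the fit of protein-coding genes alone. Of 24 cholesterol genes 7 were higher and 4 lower (4 to 7 and 1 to 4), and of 22 stem, progenitor and MYC-network genes 5 and 5 (4 to 6 and 4 to 6). Of 13 genes of the response to histone deacetylase inhibitors 3 were higher and 4 lower (2 to 4 and 2 to 5), and TXNIP, a regulator of glucose uptake from this list, had 48.5 and 40.4 CPM with DMSO, 125 and 117 with ATRA, 84.7 and 65.1 with Corin, and 343 and 415 with both agents and a departure of 0.89 (SE 0.186, adjusted p = 0.00198). Of 9 neuronal REST-CoREST targets 1 was higher and 1 lower (0 or 1 and 0 to 2).

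SKNO-1 cells, treated in the same way, gave 81 called departures among 17479 genes tested (0.463%). Of the 15448 genes tested in both lines, 2234 had an unadjusted p under 0.05 there by edgeR. Its 2 DMSO libraries held 13.5% and 7.86% of counts in small and ribosomal RNA genes. Whether the small number of calls comes from the spread between its libraries was not tested. The difference of the departure between the lines was itself called in 2449 of 19872 genes (12.3%), and in 4510 without the second DMSO library of SKNO-1. It was more negative in U-937 in 1729 genes (8.7%), among them all 45 DNA replication genes, 48 of 52 mitosis genes and all 32 histone genes. Median departures of these lists in SKNO-1 were 0.08, -0.14 and 0.55, and 0 of their genes were called there by edgeR, with 6, 14 and 3 at an unadjusted p under 0.05. SKNO-1 medium contained GM-CSF, so line and medium cannot be told apart.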

How the data were processed

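The values are estimated counts that the authors deposited as 1 table of genes by library, made with RSEM. Per the submitters' processing notes the tools were Trimmomatic, STAR, RSEM, deepTools and DESeq2 and the build was hg38, with versions, the annotation release and the use of strand and of both mates not given in the sources used here. RSEM divides reads shared by several genes, and 20.4% of the positive values were not whole, so paralogs, histones and overlapping genes are uncertain. The table has 0 spike-in entries, so the spike-in mix named in the labels was not used and RNA per cell was not measured.

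The estimated counts of the 8 U-937 libraries (28.4 to 37.6 M in total) were rounded, filtered with filterByExpr and scaled by TMM in edgeR 4.0.16 (R 4.3.3, limma 3.58.1). A quasi-likelihood model with robust settings was fitted to the 4 groups without the replicate number (4 residual degrees of freedom). Contrasts had edgeR's quasi-likelihood F test, with Benjamini-Hochberg adjustment over all 17717 genes and calls at 0.05. The model was tested on simulated counts. The SE is the log2 value divided by the root of F. CPM uses scaled totals. The common biological coefficient of variation was 0.0945. The difference between lines is an interaction contrast over all 16 libraries. With 2 libraries a group there are few rearrangements of the libraries, and no permutation test was run.

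The same replicate number in 2 groups did not mark paired samples: correlations of deviations between same-numbered libraries ran from -0.445 to 0.415 over 9449 genes. Genes were named by rule: in each class and direction the 3 with the largest absolute departure, and the 2 largest with both single effects called, among called protein-coding genes that averaged 5 CPM or more, held 20 or more counts in each group and had a departure whose sign holds for every choice of library. That gave 23 genes, and genes of the lists could be named too, those here chosen after their values were seen. The members and lists were chosen with earlier results of these data known. Alternatives were DESeq2 1.42.0, other scalings, no low-count filter, GC correction, a replicate block, a fit of all 16 libraries, each library left out, a size limit, the linear scale and, added after seeing the data, protein-coding genes alone and each library left out of the difference between lines. Gene positions are from GENCODE release 44, matched for 60261 genes. Promoters are from RefSeq (GRCh38.p14), matched for 21 of the 23 named genes.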

Additional observations from a re-analysis of the deposited data

Results flagged for a closer look

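The departure differed between U-937 and SKNO-1 in 18 of the 23 genes named by rule, by edgeR's quasi-likelihood test of the difference itself. These genes were chosen for large departures in U-937, which enter the difference, so their number is not to be read against the 12.3% of all genes called. Differences are given as the departure in U-937 minus that in SKNO-1, on the log2 scale. It was more negative in U-937 for the replication and histone genes GINS2 (-3.97), CDC45 (-3.86), UHRF1 (-3.74), MCM2 (-3.63), HIST2H2BF (-3.01) and HIST1H2BB (-2.48), and for FAM81A (-3.45), ZNF367 (-3.28) and the saturation gene MS4A4A (-4.01). It was more positive in U-937 for DTX4 (4.38), ITGA1 (3.59), PLIN2 (2.7), VIM (2.38), SMIM24 (2.36), MYOM1 (2.3), SOCS2 (1.72), ST8SIA4 (1.55) and SAT1 (0.94). For MYOM1 the difference no longer passed without the second Corin library of SKNO-1 (1.85, adjusted p = 0.0808) or without the first DMSO library of U-937 (1.71, adjusted p = 0.104). The 2 lines also differed in their medium.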

How the results depend on the processing

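All 391 values of the 23 genes named by rule, over 17 alternatives each, kept their direction and their call, and so did 574 of 578 values of 34 named list genes. The 23 genes were chosen for large called departures whose sign holds for every choice of library, so their agreement was largely set by that choice. The list genes were chosen after their values were seen. Every call shared with the fit used here kept its sign under each alternative. Upper-quartile scaling moved genes higher from 1434 to 2165 and synergy higher from 488 to 774, and the cause was not tested. A limit of 1 on the log2 scale left 1681 genes, 509 higher and 1172 lower, by construction, and sorting only genes with both single effects called left 131 higher and 164 lower in synergy, 42 and 102 in saturation and 99 and 60 in antagonism. With 1 library left out the total ran from 3098 to 4028, genes higher from 1024 to 1485 and lower from 2074 to 2747. Synergy ran from 335 to 503 higher and 1025 to 1289 lower, saturation from 86 to 127 and 119 to 232, and antagonism from 600 to 856 and 930 to 1447. DNA replication kept 45 lower, mitosis 51 to 52, and monocyte surface genes 7 to 13 higher and 3 to 6 lower. The difference between lines was called in 1635 to 4510 genes with 1 of 16 libraries left out. It ran from -0.60 (adjusted p = 1, without the first SKNO-1 library with both agents) to 2.61 for HIST3H2A and from -2.11 to 1.08 (adjusted p = 0.776, without the first SKNO-1 DMSO library) for CCR2, neither of which was called to begin with. With the replicate number as a block 3816 genes were called, 1276 higher and 2540 lower, although the numbers do not pair the samples. Precision is limited by 2 libraries a group and, for genes with few DMSO counts such as CD86 and BPI, by those counts.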

Other observations

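Of the 3047 long non-coding RNAs tested, 8.40% were called for departure, 163 higher and 93 lower, with a median of 0.19. Of the 12781 protein-coding genes 29.4% were called, 1206 higher and 2556 lower, with a median of -0.08. Whether these shares differ beyond the depth of the genes was not tested.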
